A study of Mus musculus with 16 samples.

Results

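Genes of pattern recognition, IL-1 signalling and NF-kB were compared between the livers and kidneys of LD- and ADV-conditioned mice. The 43 genes were taken by their symbols from the 32989 genes of the deposited liver and kidney tables, and all 43 were found once. They were chosen by function, with earlier results of these data known, and the rule used none of their levels. Male C57BL/6J mice were kept for 85 weeks, to an age of 97 weeks, either in a light-dark cycle with lights on from 8:00 to 20:00 (LD) or under chronic jet lag with an 8-h advance of the light phase every 4 days (ADV). Poly(A)-enriched RNA from the liver and the kidney of 4 LD mice (L63, L65, L86 and L104) and 4 ADV mice (A75, A91, A94 and A115) was sequenced, which makes 16 libraries. All mice were wild type, and the light schedule was the only labelled difference between the groups.

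Toll-like receptors at the cell surface bind bacterial lipids and proteins, and those in endosomes bind nucleic acids. They signal through the adaptors MyD88 and TRIF and the IRAK kinases to the NF-kB transcription factors, which are held in the cytosol by inhibitors such as IκBα. Cytosolic sensors such as NLRP3, NLRC4 and AIM2 assemble inflammasomes with ASC and caspase-1, which process IL-1β and IL-18 and cleave gasdermin D. In the liver these genes are known mainly from Kupffer cells and other macrophages, while hepatocytes make the lipopolysaccharide-binding protein, and in the kidney tubular cells also carry several of the receptors.

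The 8 liver libraries held between 21092501 and 24285055 fragments on genes and the 8 kidney libraries between 15688495 and 18043306. The tissue markers matched the labels. The summed level of 8 hepatocyte markers was at least 61403 FPKM in every liver and at most 1076 in every kidney, while 8 kidney tubule markers summed to at most 1.39 FPKM in every liver. FPKM are fragments divided by the exon length and by the total of the library. The kidney of A115 stood apart, with 30.9% of its fragments on mitochondrial genes against 14.6% to 16.5% in the LD kidneys, while A75, A91 and A94, at 9.81%, 12% and 8.63%, lay below every LD kidney. A94 stood apart in both organs by its immune cell markers, and these values are given with the results. Values without these libraries are given beside the results they moved most. Which of the 2 sequencing providers handled which library is not given in the sources used here. A sequencing batch can therefore not be told apart from the light schedule or from the organ.

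Promoters were examined for the sites of the factors at the end of this pathway. RefSeq promoters on GRCm38.p6, from 250 bases before to 50 bases after the transcription start, were matched by symbol for 35 of the 43 genes. The NF-kB consensus of 10 bases was searched on both strands and occurred in 8 of these 35 genes, which is 22.9%, against 5.14% of the 27025 genes with a promoter in the same collection. The 8 genes were Tlr2, Tlr3, Nlrp3, Casp4, Il1r1, Nfkb2, Nfkbia and Tnfaip3. The sequences before the start are shown for Tlr3 and Casp4, whose liver levels gave the smallest unadjusted p in the comparison of the light schedules, and for Nfkbia, a classical NF-kB target whose level is described beside them. Matches to the consensus are in capitals, and each sequence runs from 5′ to 3′ on the strand of the gene.
Tlr3, chr8:45410381-45410630, minus strand: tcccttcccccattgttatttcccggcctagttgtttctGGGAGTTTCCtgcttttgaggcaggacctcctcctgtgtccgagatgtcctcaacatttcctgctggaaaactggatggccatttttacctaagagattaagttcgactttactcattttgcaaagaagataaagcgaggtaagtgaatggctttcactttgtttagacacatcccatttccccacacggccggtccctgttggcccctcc
Casp4, chr9:5308599-5308848, plus strand: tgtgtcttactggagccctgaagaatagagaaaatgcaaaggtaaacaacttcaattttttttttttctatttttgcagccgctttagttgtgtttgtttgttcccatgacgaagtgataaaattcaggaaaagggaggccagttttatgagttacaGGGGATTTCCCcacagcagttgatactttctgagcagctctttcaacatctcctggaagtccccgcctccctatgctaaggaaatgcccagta
Nfkbia, chr12:55492648-55492897, minus strand: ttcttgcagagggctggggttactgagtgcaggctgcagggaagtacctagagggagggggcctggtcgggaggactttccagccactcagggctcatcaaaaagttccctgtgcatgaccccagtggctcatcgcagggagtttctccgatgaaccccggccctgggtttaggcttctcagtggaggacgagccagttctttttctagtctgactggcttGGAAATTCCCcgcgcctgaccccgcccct
The match began at −211 in Tlr3 and at −29 in Nfkbia, counted from the transcription start. In Casp4 a pair of overlapping matches began at −93 and −92. Other motifs were searched in the same way. The E-box CACGTG, the element bound by CLOCK and BMAL1, occurred in 6 of the 35 genes (Tlr1, Casp1, Il1r2, Ticam1, Irak3 and Tnfaip3), or 17.1% against 8.09% of all genes. The motif GAGGAAGT of PU.1, a factor of macrophages and B cells, occurred in 4 genes (Tlr1, Tlr9, Aim2 and Pycard), or 11.4% against 3.69%. An interferon response element of 10 bases occurred in Tlr6 and Myd88, or 5.71% against 3.99%. A match describes the letters of the window and is no evidence of binding.

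The mean levels of the 43 genes ranged from 0.0342 FPKM for Tlr5 in the kidney to 36.1 for Lbp in the liver, and their order differed between the organs. In the liver the highest mean belonged to Lbp, with 36.1 ± 12.3 FPKM (SD, n = 8 mice), followed by Nfkbia with 17.3 ± 2.57, Irak1 with 15.9 ± 1.54, Il1r1 with 13.6 ± 4.41 and Il18 with 11.5 ± 2.40. Lbp lay above every other gene in each liver, whereas the neighbours from Nfkbia to Il18 overlapped. In the kidney the highest means were those of Nfkbia with 22.2 ± 7.39 FPKM, Irak1 with 19.3 ± 4.82, Rela with 9.97 ± 4.42 and Nfkb1 with 9.27 ± 2.89, and here too neighbours overlapped. The kinase Irak1, the subunit Rela and the inhibitor Nfkbia were thus among the most abundant in both organs. At the low end, Tlr5 and Il1a had 0 fragments in 2 and 4 kidneys. Nod2 in the liver rested on 2 to 14 fragments per library. Exons of several genes lie opposite those of another gene, which makes their reads uncertain because the strand setting of the counting is not given in the sources used here. Myd88 shares 290 bases with Acaa1a, Nfkb2 shares 299 with Psd, Irak4 shares 395 with Twf1 and Tlr3 shares 381 with the noncoding gene Gm45542, and shorter or noncoding overlaps were found for Il1a, Il1b, Irak2, Irak3, Pycard and Tirap.

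**Figure D1:**
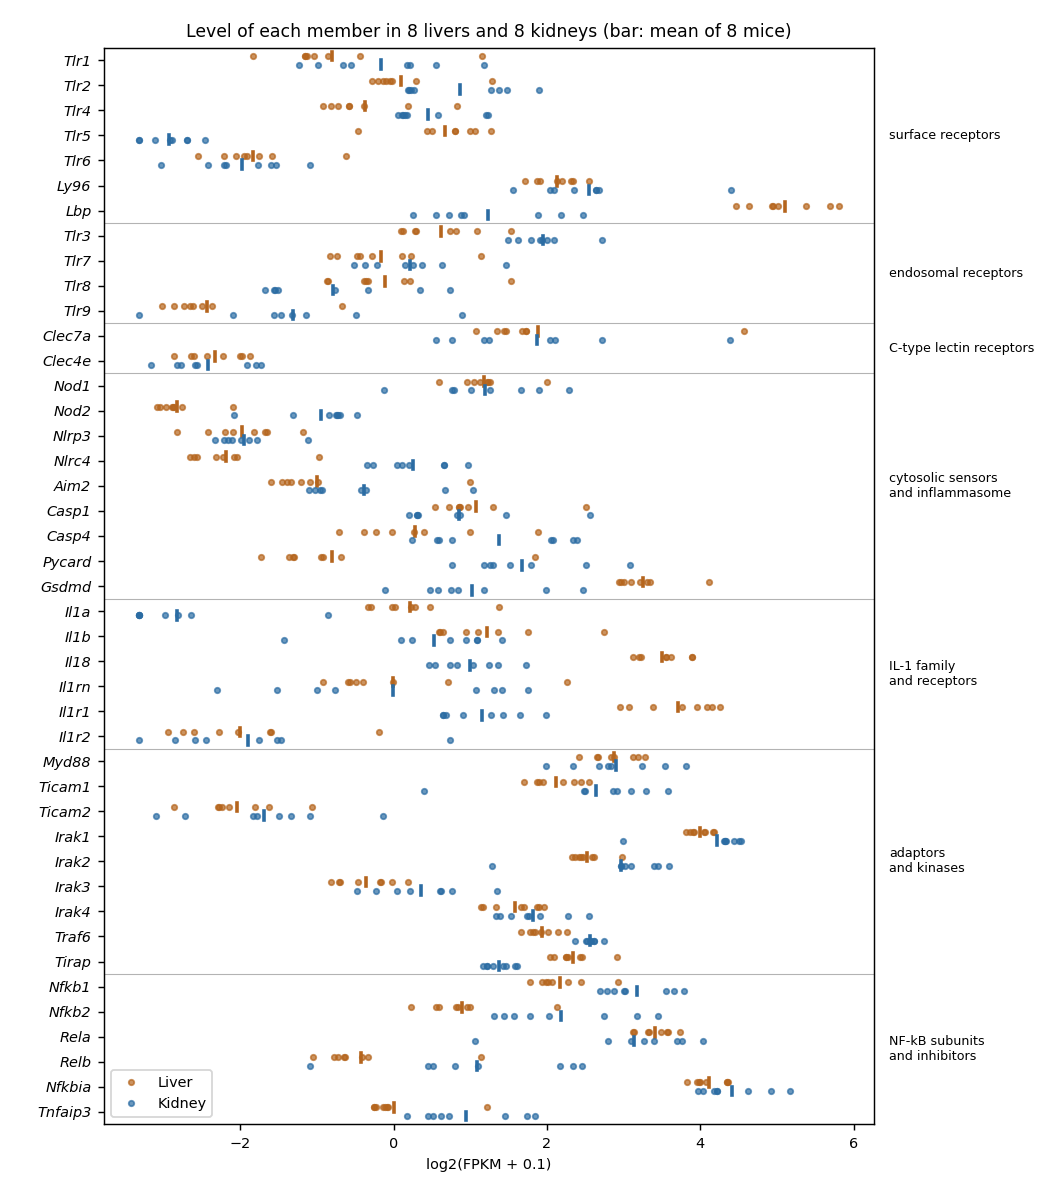
Level of each of the 43 genes in 8 livers (brown) and 8 kidneys (blue), as log2(FPKM + 0.1) on the horizontal axis. Points are single mice, bars are means over 8 mice, and grey lines separate the groups of genes by role; Lbp, Tlr5, Il1a, Il18 and Il1r1 lie farthest to the right in the liver relative to the kidney, and Nlrc4 and Pycard farthest to the left.

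Liver and kidney were compared over all 16 libraries, and a sequencing batch that followed the organ cannot be told apart from it. Differences are on the log2(FPKM + 0.1) scale, liver minus kidney, tested with limma and Benjamini-Hochberg adjustment over 14379 genes. Of the 40 genes tested, 7 were higher in the liver and 13 higher in the kidney with an adjusted p under 0.05 by limma, against 13.1% and 61.5% of all genes. Tlr6, Il1r2 and Clec4e were below the minimum level. The median difference of all genes was −0.74 as deposited and −0.01 after scaling by the median ratio. With that scaling, 16 of the 40 genes were higher in the liver and 4 in the kidney, against 31.5% and 33.8% of all genes. After quantile normalization the counts were 17 and 3, against 31.3% and 32.3%. Calls that held under all 3 scalings were 7 in the liver (Lbp, Tlr5, Il1a, Il1r1, Il18, Gsdmd and Tirap) and 3 in the kidney (Nlrc4, Nod2 and Pycard). No gene was called in opposite directions by these 3 fits, which had no block for the mouse. For single genes, the difference within each of the 8 mice was also tested by an exact sign-flip permutation test, two-sided, whose smallest p is 0.0078.

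Among the receptors of the cell surface, Lbp and Tlr5 were the liver genes. Lbp, the plasma protein that carries lipopolysaccharide to CD14 and TLR4, lay between 22.0 and 55.8 FPKM in the livers (median 31.5) and between 1.09 and 5.45 in the kidneys (median 1.76). The difference was 3.87 (SE 0.30, adjusted p = 1.2e-08 by limma, exact sign-flip p = 0.0078). Tlr5, the receptor of flagellin, lay between 0.622 and 2.32 FPKM in the livers (median 1.64) and between 0 and 0.0817 in the kidneys (median 0.0334), where at most 5 fragments fell on it. Its difference of 3.60 (SE 0.23, adjusted p = 1.2e-09 by limma) depends on the pseudocount because the kidney level was close to 0. Organs did not overlap in either gene. Tlr4, the receptor of lipopolysaccharide, ranged from 0.430 to 1.67 FPKM in the livers (median 0.567) and from 0.941 to 2.24 in the kidneys (median 1.02). Its difference of −0.83 (SE 0.25, adjusted p = 0.0073 by limma) was past the threshold as deposited, but was −0.14 (adjusted p = 0.64) after scaling by the median ratio and 0.39 (adjusted p = 0.24) after quantile normalization. The differences of the other receptors tested were −0.76 for Tlr2, −0.64 for Tlr1 (adjusted p = 0.0095 by limma with the mouse as a block) and −0.43 for Ly96, the co-receptor of TLR4. After scaling by the median ratio they were −0.05, 0.0015 and 0.33, and after quantile normalization 0.35, 0.65 and 0.37, with none called. In the endosomal group the differences were −0.38 for Tlr7, 0.67 for Tlr8 and −1.11 for Tlr9. None of the 3 was called without a block, and with the mouse as a block all 3 were (adjusted p = 0.049, 0.0085 and 0.0047 by limma). Tlr8 was also called after scaling by the median ratio (1.31, adjusted p = 0.0026) and after quantile normalization (1.91, adjusted p = 0.00018). Tlr9 was at −0.66 (adjusted p = 0.19) and 0.17 (adjusted p = 0.67) in these settings. Tlr7 was at 0.82 (adjusted p = 0.013) after quantile normalization, while it was called in the opposite direction with the block. Tlr3, which binds double-stranded RNA, was higher in the kidney of each of the 8 mice (−1.33, SE 0.17, adjusted p = 3.2e-06 by limma), and the value after quantile normalization was −0.37 (adjusted p = 0.19).

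The inflammasome genes divided between the organs. Nlrc4, the sensor of bacterial flagellin and secretion systems, lay between 0.0587 and 0.408 FPKM in the livers (median 0.107) and between 0.689 and 1.86 in the kidneys (median 1.01). The organs did not overlap, and the difference was −2.44 (SE 0.20, adjusted p = 2.5e-08 by limma, exact sign-flip p = 0.0078). Pycard, which encodes the adaptor ASC, lay between 0.201 and 3.5 FPKM in the livers (median 0.362) and between 1.59 and 8.36 in the kidneys (median 2.56). Its difference was −2.48 (SE 0.43, adjusted p = 8.4e-05 by limma), and within each mouse the kidney was higher, although the liver of A94 reached the level of the kidneys. Nod2, a sensor of bacterial cell wall fragments, had 9.95 times the mean level in the kidney (difference −1.87, SE 0.22, adjusted p = 1.4e-06 by limma). Gsdmd, the pore-forming protein that caspases cleave, went the other way. It lay between 7.57 and 17.3 FPKM in the livers (median 8.81) and between 0.83 and 5.42 in the kidneys (median 1.63), a difference of 2.23 (SE 0.30, adjusted p = 7.9e-06 by limma). Nlrp3 was low in both organs, with 0.0407 to 0.340 FPKM in the livers (median 0.159) and 0.0986 to 0.360 in the kidneys (median 0.142). Casp4 had a difference of −1.11 (adjusted p = 0.014 by limma), which was −0.39 (adjusted p = 0.35) after scaling by the median ratio. For Nlrp3 the difference was −0.03 (SE 0.20, adjusted p = 0.89 by limma) as deposited and 1.22 (adjusted p = 2.5e-05) after quantile normalization, so that the order depended on the scaling.

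As deposited, the IL-1 family held the most genes called higher in the liver, with 3, whereas after scaling by the median ratio it held 4, as did the adaptors and kinases. Il18, whose product acts on T and NK cells, lay between 8.61 and 14.7 FPKM in the livers (median 11.6) and between 1.28 and 3.22 in the kidneys (median 1.81). The difference was 2.51 (SE 0.19, adjusted p = 8.6e-09 by limma). Il1r1, the signalling receptor of IL-1, lay between 7.62 and 19.1 FPKM in the livers (median 14.5) and between 1.46 and 3.87 in the kidneys (median 2.04), and differed by 2.55 (SE 0.23, adjusted p = 9.8e-08 by limma). Il1a, an IL-1 that is active without processing, lay between 0.693 and 2.49 FPKM in the livers (median 0.993) and between 0 and 0.452 in the kidneys (median 0.0131). All kidneys but that of A94 had at most 2.0 fragments on it, and the difference was 3.04 (SE 0.34, adjusted p = 1.0e-06 by limma). These 3 genes were higher in the liver of each of the 8 mice (exact sign-flip p = 0.0078 each). Il1b ranged from 1.40 to 6.62 FPKM in the livers (median 1.93) and from 0.273 to 2.56 in the kidneys (median 1.69), with the liver higher in 7 of 8 mice. Its difference of 0.69 (SE 0.40, adjusted p = 0.13 by limma) was 0.032 as an adjusted p when the mouse was a block, and the larger differences of 1.42 and 1.75 after the other scalings were also past the threshold.

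Calls among the adaptors, kinases and subunits depended mostly on the scaling. Of the 9 adaptors and kinases, Tirap was higher in the liver (0.96, SE 0.13, adjusted p = 6.6e-06 by limma), and Irak3 and Traf6 were higher in the kidney as deposited, with −0.72 and −0.63, but had −0.03 and 0.12 after scaling by the median ratio. Myd88 lay between 5.25 and 9.61 FPKM in the livers (median 7.14) and between 3.86 and 14 in the kidneys (median 6.96). Its difference was −0.02 (SE 0.24, adjusted p = 0.93 by limma), against 0.74 (adjusted p = 0.0010) after scaling by the median ratio. Nfkbia, which encodes IκBα, lay between 14.03 and 20.4 FPKM in the livers (median 16.3) and between 15.5 and 36.0 in the kidneys (median 18.5). Its difference was −0.31 (SE 0.17, adjusted p = 0.11 by limma, 0.048 with the mouse as a block), and it was 0.46 (adjusted p = 0.0033) after scaling by the median ratio, which is a call in the opposite direction. The subunits Relb, Nfkb2 and Nfkb1 and the inhibitor Tnfaip3 were called higher in the kidney as deposited, with −1.52, −1.30, −1.0 and −0.93, and 0 of the 4 kept this call after the other scalings.

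The light schedules were first compared in the liver. Each ADV mouse is set against the LD mice, and fold changes are ADV minus LD on the same log2 scale, tested over 12835 genes. Of the 39 genes tested, 0 had an adjusted p under 0.05 by limma, where 0.00779% of all genes did, and limma-voom on the recovered fragments also gave 0. Tlr9, Nod2, Il1r2 and Clec4e were below the minimum level. On the log2 scale, which is used for all such counts, the ADV mean was higher in 32 of the 39 genes and lower in 7. Over all 12835 genes it was higher in 8439 and lower in 4396. The median log2 fold change was 0.38, against 0.10 over all genes. Without A94 the ADV mean was higher in 25 of 36 genes, with a median of 0.17, against 6792 of 12553 and 0.02. Tlr6, Nlrc4 and Ticam2, all counted as higher, fell below the minimum level without A94. The unadjusted p was under 0.05 for 5 genes, all higher (Tlr3, Casp4, Tlr8, Gsdmd and Tlr7), or 5 of 39 beside 8.65% of all genes higher and 3.13% lower. All 4 ADV mice lay above all 4 LD mice in 4 genes (Tlr3, Tlr8, Clec7a and Gsdmd) and below them in 0, beside 6.94% and 1.89% of all genes. The exact permutation test over the 70 assignments of the mice, two-sided, cannot go below p = 0.029 with 4 against 4.

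**Figure D2:**
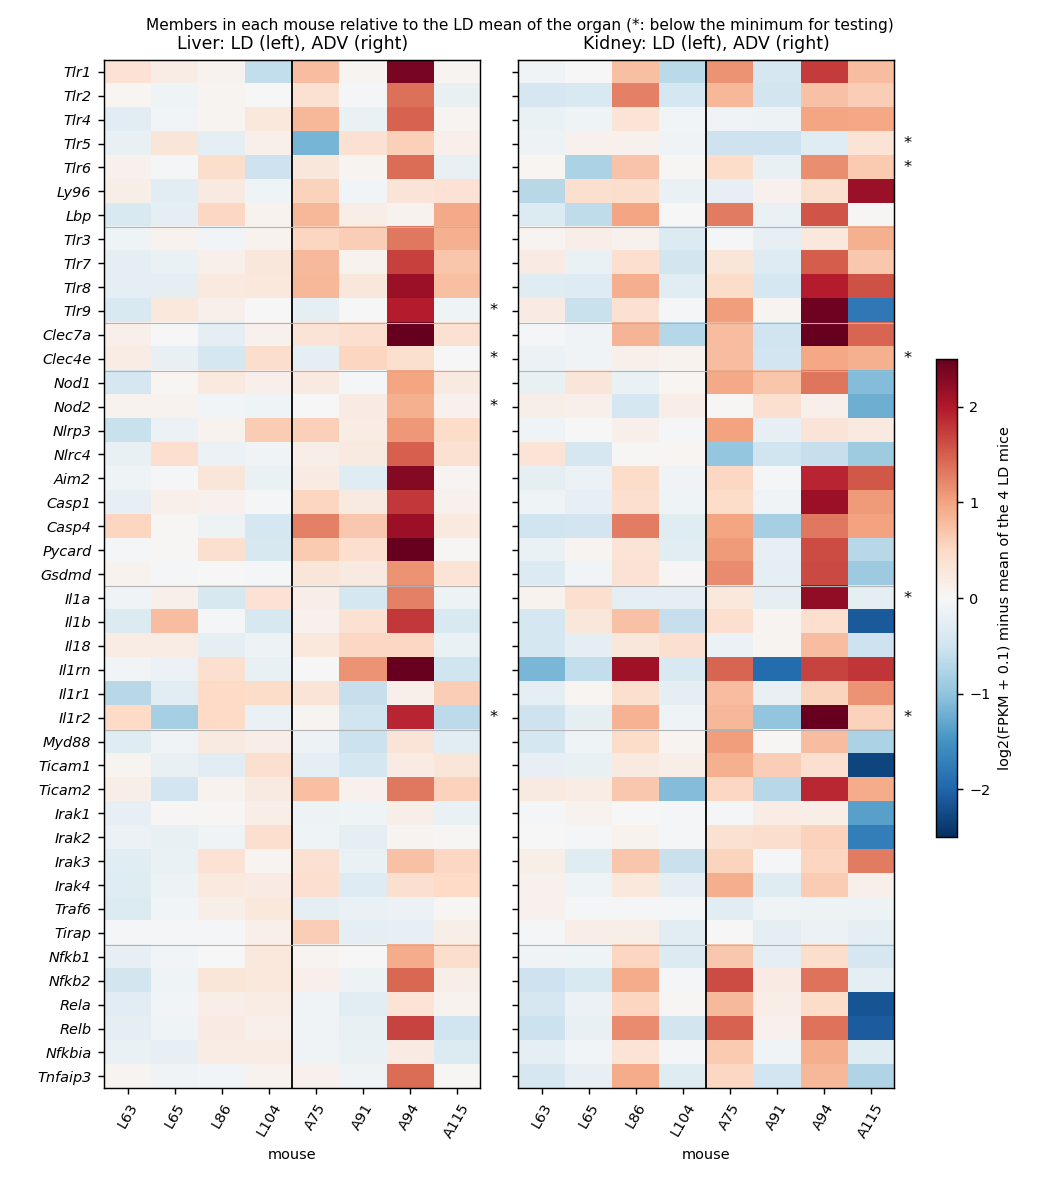
Each of the 43 genes in each mouse, as the log2(FPKM + 0.1) minus the mean of the 4 LD mice of that organ (red higher, blue lower, colours saturate at 2.5), with the livers on the left and the kidneys on the right. In the liver the column of A94 is red in nearly all genes; in the kidney A94, A75 and the LD mouse L86 are mostly red, and A115 holds the deepest blues.

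Tlr3 had the smallest p. It was at 0.970, 1.11, 0.991 and 1.12 FPKM in the livers of L63, L65, L86 and L104, and at 1.56, 1.65, 2.78 and 2.03 in those of A75, A91, A94 and A115. All ADV mice lay above all LD mice, with the highest value in A94. The log2 fold change was 0.84 (SE 0.19, unadjusted p = 0.0016, adjusted p = 0.29 by limma, exact permutation p = 0.029), and without A94 it was 0.68. Tlr8, a receptor of single-stranded RNA, was at 0.450, 0.447, 0.667 and 0.678 FPKM in the LD livers and at 1.06, 0.692, 2.80 and 1.0 in the ADV livers, in the same order of mice. A91 lay just above the highest LD mouse. The log2 fold change of Tlr8 was 1.01 (SE 0.37, adjusted p = 0.37 by limma, exact permutation p = 0.029) and 0.63 without A94. Tlr7, its relative with the same kind of ligand, was at 0.464, 0.498, 0.636 and 0.720 FPKM in the LD livers and 1.07, 0.616, 2.10 and 0.980 in the ADV livers, with A91 within the LD range. Its log2 fold change was 0.82 (SE 0.32, adjusted p = 0.38 by limma, exact permutation p = 0.086) and 0.53 without A94.

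Among the cytosolic sensors and inflammasome genes, 8 of 8 tested had a higher ADV mean, with a median log2 fold change of 0.57. Without A94 this was 6 of 7 with a median of 0.29. Nlrc4, counted among the 8, averaged 0.523 in FPKM times exon length in kb, against the minimum of 0.5. It fell below that minimum without A94. Its entry into the count thus rested on an ADV mouse, and its direction adds no independent evidence. Casp4, the caspase that binds lipopolysaccharide in the cytosol, was at 1.10, 0.750, 0.663 and 0.512 FPKM in the LD livers and 1.89, 1.22, 3.57 and 0.887 in the ADV livers. Only A115 lay within the LD range. Its log2 fold change was 1.08 (SE 0.39, unadjusted p = 0.020, adjusted p = 0.37 by limma, exact permutation p = 0.057), and 0.73 without A94. Gsdmd, a substrate of that caspase, was at 8.44, 7.57, 7.90 and 7.68 FPKM in the LD livers and 9.75, 9.19, 17.3 and 10.03 in the ADV livers, so that the groups did not overlap. The log2 fold change of Gsdmd was 0.50 (SE 0.19, adjusted p = 0.38 by limma, exact permutation p = 0.029) and 0.29 without A94. Nlrp3 was at 0.0407, 0.0860, 0.119 and 0.219 FPKM in the LD livers and 0.213, 0.135, 0.340 and 0.183 in the ADV livers. The groups overlapped, with a log2 fold change of 0.58 (SE 0.32, adjusted p = 0.48 by limma). Pycard had a log2 fold change of 1.07, which was 0.36 without A94, where it reached 3.5 FPKM against at most 0.521 in the other livers.

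**Figure D3:**
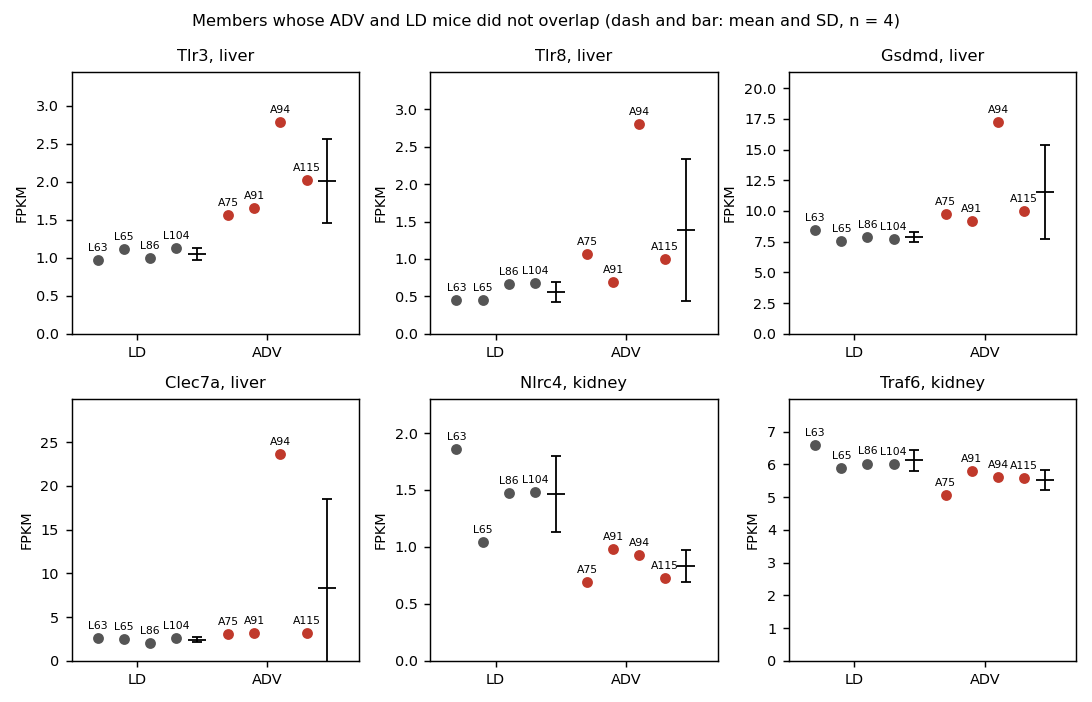
FPKM per mouse of the genes in which all ADV mice lay on one side of all LD mice, 4 in the liver (Tlr3, Tlr8, Gsdmd, Clec7a) and 2 in the kidney (Nlrc4, Traf6). Grey points are LD, red points ADV, and dashes with bars are the mean and SD of 4 mice; A94 is the highest ADV liver in each liver panel, and in Clec7a it stands alone at 23.7 FPKM.

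The receptors at the surface had 6 of 7 genes with a higher ADV mean and a median log2 fold change of 0.39. Without A94 this was 5 of 6 with a median of 0.26, as Tlr6, counted as higher, then fell below the minimum level. Tlr4 was at 0.430, 0.507, 0.569 and 0.665 FPKM in the LD livers and 1.03, 0.469, 1.67 and 0.566 in the ADV livers, which overlapped (log2 fold change 0.55, SE 0.34, adjusted p = 0.51 by limma; 0.24 without A94). For the C-type lectin receptor Clec7a, which binds fungal β-glucan, the LD livers lay at 2.01 to 2.66 FPKM and the ADV livers at 3.10, 3.20, 23.7 and 3.19. Although no ADV mouse overlapped the LD mice, its log2 fold change of 1.09 rested mainly on A94 and was 0.38 without it. In the IL-1 family, 5 of 5 tested had a higher ADV mean (median 0.28), and without A94 4 of 5 (median 0.12). Il1b was at 1.46, 3.27, 1.82 and 1.40 FPKM in the LD livers and 2.04, 2.47, 6.62 and 1.41 in the ADV livers. Its log2 fold change of 0.47 (SE 0.44, adjusted p = 0.64 by limma) was 0.04 without A94. Il18 was at 11.6, 11.7, 8.61 and 9.27 FPKM in the LD livers and 12.2, 14.7, 14.7 and 9.06 in the ADV livers (0.28, SE 0.18, adjusted p = 0.51 by limma), and without A115 the fold change was 0.44 (unadjusted p = 0.017, adjusted p = 0.46). In neither cytokine were the groups apart.

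Of 9 adaptors and kinases, 4 had a higher ADV mean and 5 a lower one, with a median of −0.04. Myd88, the adaptor of most Toll-like receptors and of the IL-1 receptor, was at 6.21, 7.23, 9.0 and 8.60 FPKM in the LD livers and 7.04, 5.25, 9.61 and 6.27 in the ADV livers (−0.16, SE 0.19, adjusted p = 0.72 by limma). Without A94 its log2 fold change was −0.32, and with the median ratio scaling as well it was −0.34 (unadjusted p = 0.044). Irak3 and Irak4 had 0.36 and 0.25. The highest fold change of this group was that of Ticam2, an adaptor of TLR4, which was at 0.113, 0.0373, 0.105 and 0.125 FPKM in the LD livers and 0.223, 0.106, 0.378 and 0.185 in the ADV livers. Its log2 fold change was 0.69 (SE 0.32, adjusted p = 0.44 by limma), on 3 to 28 fragments per library. The 28 fragments were those of A94. With all mice, the FPKM of Ticam2 times its exon length in kb averaged 0.518, against the minimum of 0.5. Without A94 it fell below that minimum. The mouse that brought Ticam2 into the test also raised its fold change, so its rank rests on A94. Ticam2 shares 838 bases of exon on the same strand with Tmed7, so that its reads are uncertain. Of the 6 subunits and inhibitors, 5 had a higher ADV mean, with a median of 0.29, but without A94 only 3 did, with a median of −0.04. Nfkbia, whose ADV mean was lower with all mice, was at 15.8, 15.4, 20.3 and 20.2 FPKM in the LD livers and 16.7, 15.8, 20.4 and 14.03 in the ADV livers (−0.10, SE 0.15, adjusted p = 0.78 by limma; −0.20 without A94). Among the 8 genes whose promoters hold the NF-kB consensus, Nfkbia had the lowest log2 fold change. The others were at 1.08 (Casp4), 0.84 (Tlr3), 0.58 (Nlrp3), 0.39 (Nfkb2), 0.38 (Tlr2), 0.36 (Tnfaip3) and 0.12 (Il1r1). Without A94 these were 0.73, 0.68, 0.41, 0.04, 0.05, 0.01 and 0.12. A relation between the consensus and the fold changes was not tested.

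In the kidney the comparison covered 38 of the genes among 14452 tested. An adjusted p under 0.05 by limma was reached by 0 of the 38 and by 0% of all genes, and limma-voom also gave 0. Tlr5, Tlr6, Il1a, Il1r2 and Clec4e were below the minimum level. The ADV mean on the log2 scale was higher in 29 and lower in 9, of which Ticam1, Irak2 and Rela had a higher mean FPKM in the ADV kidneys. Over all genes the ADV mean was higher in 6707 of 14452. The median log2 fold change was 0.43, against −0.02 over all genes. By role, the ADV mean was higher in 5 of 5 surface receptors (median 0.62), 4 of 4 endosomal receptors (0.49), 7 of 9 cytosolic sensors and inflammasome genes (0.45), 3 of 4 IL-1 family genes (0.31), 5 of 6 subunits and inhibitors (0.17) and 4 of 9 adaptors and kinases (−0.08). Without A94 these medians were 0.39, 0.22, 0.19, 0.12, −0.08 and −0.14. At an unadjusted p under 0.05 there was 1 gene, Nlrc4, which was lower, beside 1.75% of all genes higher and 1.35% lower. No gene had all ADV mice above the LD mice (0.962% of all genes), and 2 had them all below, Nlrc4 and Traf6 (1.83% of all genes). Nlrc4 was at 1.86, 1.05, 1.47 and 1.48 FPKM in the LD kidneys and 0.689, 0.982, 0.928 and 0.730 in the ADV kidneys. Its log2 fold change was −0.74 (SE 0.23, unadjusted p = 0.013, adjusted p = 1.0 by limma, exact permutation p = 0.029), −0.79 without A94 and −0.68 without A115. For Traf6, the ubiquitin ligase that links IRAK kinases to NF-kB, the distance was small, with LD kidneys at 5.87 to 6.59 FPKM and ADV kidneys at 5.06 to 5.78 (−0.15, SE 0.14, adjusted p = 1.0 by limma).

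The other kidney genes with the smallest p were higher in the ADV mean, and in none of them were the groups apart. Aim2, the sensor of cytosolic DNA, was at 0.366, 0.392, 0.644 and 0.414 FPKM in the LD kidneys and 0.680, 0.424, 1.94 and 1.495 in the ADV kidneys (0.98, SE 0.44, adjusted p = 1.0 by limma, exact permutation p = 0.057). Casp1, the caspase of the inflammasome, was at 1.13, 1.05, 1.67 and 1.14 in the LD and 1.72, 1.15, 5.77 and 2.66 FPKM in the ADV kidneys (0.89, SE 0.46, adjusted p = 1.0 by limma, exact permutation p = 0.057). In both genes A91 lay within the LD range and A94 was highest. Il1r1 was at 1.47, 1.77, 2.30 and 1.46 FPKM in the LD and 3.03, 1.51, 2.60 and 3.87 in the ADV kidneys, a log2 fold change of 0.57 (SE 0.31), and 0.57 without A94. Clec7a was at 2.27, 2.16, 4.22 and 1.37 FPKM in the LD and 4.00, 1.6, 20.8 and 6.49 in the ADV kidneys, a log2 fold change of 1.21 (SE 0.72). For Tlr1, which pairs with TLR2 to bind lipopeptides, these values were 0.531, 0.580, 1.03 and 0.324 in the LD and 1.37, 0.405, 2.17 and 1.06 FPKM in the ADV kidneys, a log2 fold change of 0.81 (SE 0.49). Without A94 the fold changes of Casp1, Clec7a and Tlr1 were 0.47, 0.57 and 0.50.

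The widely known members of the pathway did not separate the kidneys by light schedule. Tlr4 was at 0.941 to 1.40 FPKM in the LD kidneys and 1.01, 0.974, 2.24 and 2.20 in the ADV kidneys (0.44, SE 0.33), and without A94 or A115 the fold change was 0.25 or 0.26. Nlrp3 was at 0.116 to 0.152 in the LD and 0.360, 0.0986, 0.190 and 0.169 in the ADV kidneys (0.34, SE 0.28), with 0.11 without A75 and 0.52 without A91. In Tlr4 the mice A75 and A91 lay within the LD range, and in Nlrp3 A91 lay below it. Il1b was at 1.08, 1.83, 2.56 and 0.966 FPKM in the LD and 2.03, 1.56, 2.02 and 0.273 in the ADV kidneys, where the fold change of −0.30 (SE 0.60) became 0.30 without A115. Il18 was at 1.35 to 2.47 FPKM in the LD and 1.68, 1.94, 3.22 and 1.28 in the ADV kidneys (0.04, SE 0.32). Myd88, at 4.95 to 9.34 FPKM in the LD and 14, 6.85, 11.6 and 3.86 in the ADV kidneys, had 0.26 (SE 0.41), which was 0.0031 without A75, 0.094 without A94 and 0.61 without A115. Nfkbia was at 16.3 to 24.4 FPKM in the LD and 30.2, 18.04, 36.0 and 15.5 in the ADV kidneys (0.29, SE 0.29), with 0.085 without A94 and 0.49 without A115. With all mice, each of these had an adjusted p of 1.0 by limma.

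Several kidney values turned on A115. Its kidney held the lowest level of all 8 in 16 of the 38 genes, among them Ticam1 at 1.22 FPKM against at least 5.47 in the others and Irak2 at 2.33 against at least 7.68, while Ly96 was highest there at 21.1. Leaving out A115 gave 3 calls at an adjusted p under 0.05 by limma, Nod1 (0.99, adjusted p = 0.017), Irak2 (0.47, adjusted p = 0.018) and Ticam1 (0.63, adjusted p = 0.033), all higher in ADV. The background was then 18.8% of all genes, with a median log2 fold change of 0.20 over all genes. When the 7 kidneys were also scaled by the median ratio, 2 genes were called, Nod1 (0.81, adjusted p = 0.032) and Nlrc4 (−0.86, adjusted p = 0.043), against a background of 16% of all genes. The part of the mitochondrial share in these values was not tested.

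**Figure D4:**
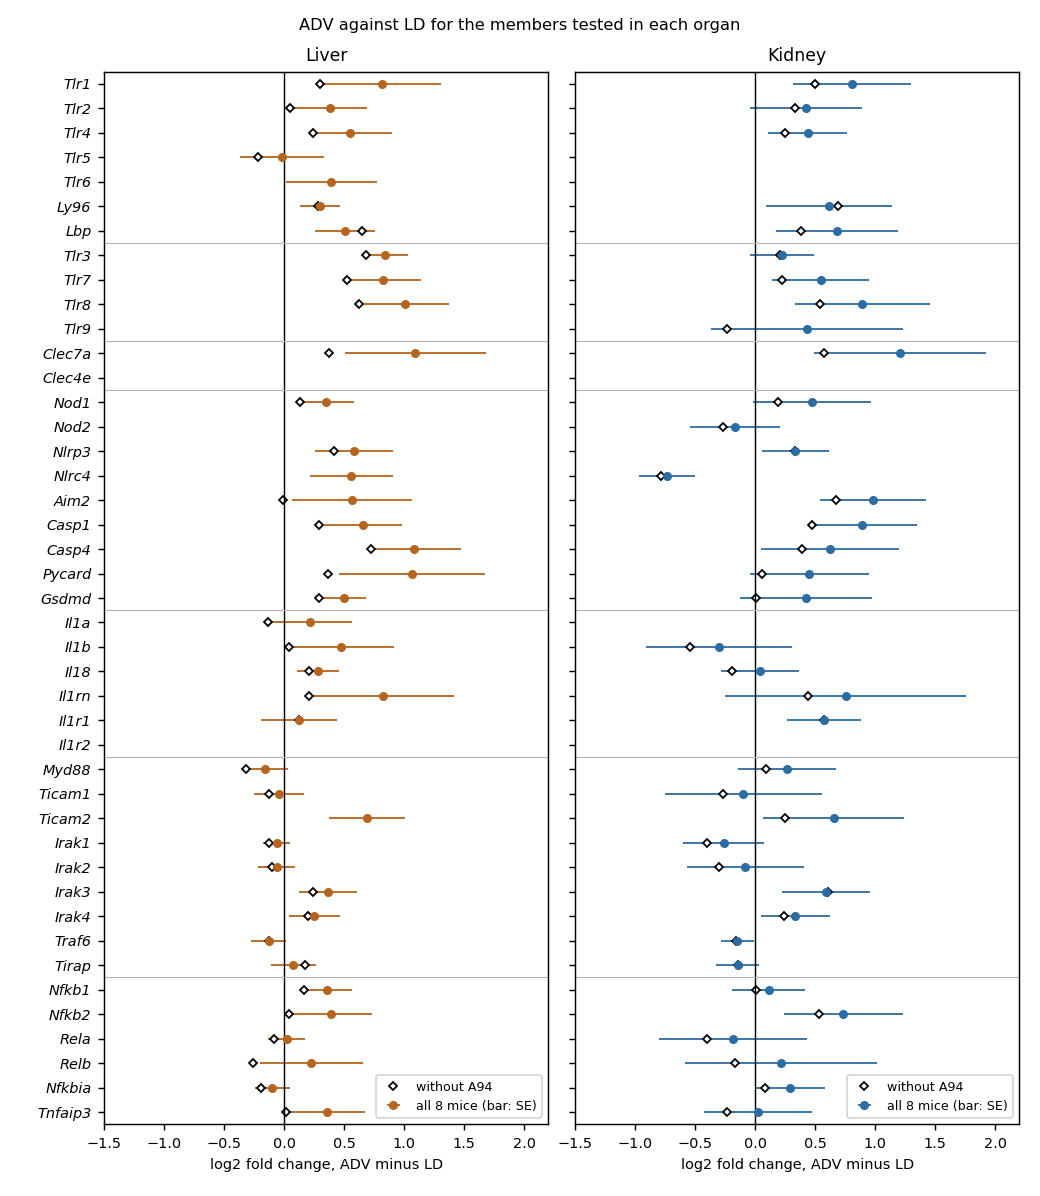
Log2 fold change, ADV minus LD, of the genes tested in the liver (39) and kidney (38). Filled points with bars are the estimate and its standard error with all 8 mice, and open diamonds are the estimate without A94, drawn for the genes that passed the minimum there; in the liver most diamonds lie nearer to 0, Tlr3 is at 0.68 and Lbp lies farther from 0.

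The difference between the organs in the ADV effect was tested in 1 fit over all 16 libraries. Of the 40 genes, 0 had an adjusted p under 0.05 by limma (0% of all genes), and 1 had an unadjusted p under 0.05 (3.73% of all genes). That gene was Nlrc4, whose ADV effect was larger in the liver by 1.30 (SE 0.40, unadjusted p = 0.0055, adjusted p = 1.0 by limma). In the liver its log2 fold change was 0.56 on 5.5 to 35.5 fragments per library, and in the kidney −0.74 on 47.5 to 138. The 35.5 fragments were those of A94, without which Nlrc4 fell below the minimum level in the liver. In the fit over both organs, which kept it, the difference was 1.04 without A94. For Tlr3 the difference was 0.62 (SE 0.33, unadjusted p = 0.083). Without A115 and scaled by the median ratio, Tlr3 was called (0.91, adjusted p = 0.042), which is 1 of the 40 genes beside 3.39% of all genes, and Nlrc4 had an adjusted p of 0.069.

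How the genes varied among single mice is shown by the median deviation of a mouse from the LD mean over the genes tested. In the liver A94 deviated by 1.27 and had the highest level of all 8 mice in 30 of 39 genes. The other livers lay between −0.18 for L63 and 0.28 for A75, so that A91 at −0.04 and A115 at 0.12 were within the range of the LD livers. In the kidney A94 deviated by 0.80 and A75 by 0.66, but L86, an LD mouse, also deviated by 0.42 and exceeded the other 3 LD mice in 30 of 38 genes. The medians of A91 and A115 were −0.15 and −0.18. The kidney of A115 nevertheless lay above every LD mouse in 13 genes and below every LD mouse in 18, with deviations from −2.29 to 2.16. Without A94, 25 of 36 genes tested in the liver had a higher ADV mean, with a median of 0.17 against 0.02 over all genes, and 25 of 38 in the kidney, with a median of 0.20 against −0.10. Over all genes the ADV mean was then higher in 6792 of 12553 in the liver and 5102 of 14291 in the kidney. The 7 liver genes then at an unadjusted p under 0.05 were Tlr3, Casp4, Tlr8, Gsdmd, Tlr7, Lbp and Clec7a, all higher, beside 8.8% of all genes higher and 5.66% lower. Without A75 the kidney median was 0.24.

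The summed markers of macrophages and other immune cells were highest in A94 in both organs. Their association with the levels of the pathway was not tested. The livers of A91 and A115 lay above every LD liver in the macrophage sum, while their medians over the pathway were within the LD range. The summed level of the 14 macrophage and Kupffer cell markers was between 197 and 260 FPKM in the LD livers and 309, 270, 913 and 295 in the livers of A75, A91, A94 and A115. All 14 had a higher ADV mean in the liver, and in 9 of them the groups did not overlap, beside 6.94% of all genes. Of the other markers tested in the liver, 2 of 9 for monocytes and neutrophils, 0 of 8 for B cells and 2 of 8 for T and NK cells were apart. In the kidney 0 of the 10 macrophage markers tested were apart. In the kidney the sum was between 42.5 and 114.9 FPKM in the LD mice, with the highest value in L86, and 209, 65.1, 435 and 34.9 in the ADV mice, while the Kupffer cell marker Clec4f was at 0 in every kidney. Monocyte and neutrophil markers (12 genes) summed to at most 15.1 FPKM in the LD livers and to 134 in A94, and to at most 18.5 in the LD kidneys and 112 in A94. In A75, A91 and A115 they summed to 20.8, 13.8 and 7.73 in the liver and 22.8, 9.70 and 24.2 in the kidney. Mpo was at 0 in every kidney. The 8 tubule markers summed to 29473 FPKM in the kidney of L86 and 38139 to 42012 in the other LD kidneys, and to 21106, 32100, 23202 and 47360 in A75, A91, A94 and A115. The 10 B cell markers summed to at most 9.99 FPKM in the LD livers against 671 in A94, and to at most 45.8 in the LD kidneys against 501, and the 10 T and NK cell markers to at most 3.01 and 9.12 against 25.9 and 47.7. Endothelial markers (8 genes) had sums of 65.3 to 70.02 FPKM in LD livers and of 69.4 to 94.9 in ADV livers. The part of these cells, and of the mitochondrial share, in the levels of the pathway was not tested, and in whole tissue a different number of cells of a type and a different RNA content per cell cannot be told apart.

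**Figure D5:**
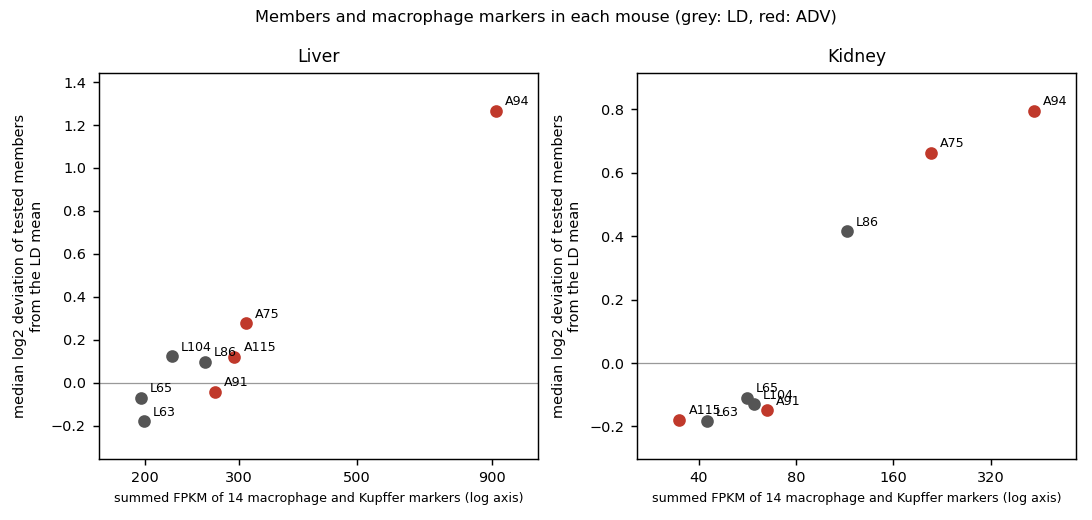
Median log2 deviation of the tested genes from the LD mean (vertical axis) against the summed FPKM of 14 macrophage and Kupffer cell markers (horizontal log axis) in the liver (left) and kidney (right), 1 point per mouse, LD grey and ADV red. A94 is at the upper right in both organs, and in the kidney the LD mouse L86 lies between A75 and the other mice.

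Further genes of the pathway, from lists of general knowledge, were compared in the same fits of the liver, where 8.65% of all genes were higher and 3.13% lower at an unadjusted p under 0.05. The ADV mean was higher in 8439 of all 12835 genes. Among 25 other sensors and co-receptors tested, 19 had a higher ADV mean (median log2 fold change 0.57), and 5 were higher and 1 lower at an unadjusted p under 0.05. These were Cd14, the co-receptor of TLR4 (0.80), Ddx58, the RNA sensor RIG-I (0.84), Tmem173, which encodes STING (1.04), Fcer1g (0.87) and Naip2 (0.57), a partner of NLRC4 whose reads can be shared with its close paralogs, and Nlrp6 (−0.28). Of 5 other IL-1 family genes, 4 were higher (median 0.75), with Il33 (1.17) at an unadjusted p under 0.05, and without A94 all 5 were higher. Of 23 other NF-kB signalling genes 18 were higher (median 0.17), among them Tab1 (0.89), Ikbke (0.52) and Ube2n (0.34) at an unadjusted p under 0.05. Among 11 NF-kB target genes tested, 9 were higher (median 0.60), with Lcn2 (2.01) and Birc3 (0.56) higher and Sod2 (−0.26) lower at an unadjusted p under 0.05. Of these 4 lists, 0 genes had an adjusted p under 0.05 by limma. Without A94 the liver medians of the 4 lists, in this order, were 0.25, 0.41, 0.07 and 0.09, and 5 of the 9 target genes then tested were higher. In the kidney the medians of the same lists were 0.30, 0.35, −0.04 and 0.35, with 0 genes at an unadjusted p under 0.05 and 0 at an adjusted one by limma, and without A94 they were −0.07, 0.09, −0.10 and 0.20.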

How the data were processed

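The authors trimmed the paired reads, mapped them to mm10 with STAR 2.5.4b, discarded reads of low mapping quality and used Homer to quantify exons of UCSC's known canonical gene set. The deposited values are FPKM, scaled to the total of each library and to exon length, with no further normalization between libraries. Multiplied back, all values came in steps of 0.5 fragment within 0.02. The precision of a level follows from these fragments, as 1 fragment in 1 kb of exon amounts to 0.0380 to 0.0584 FPKM. The study's own test, DESeq2 on counts, was not run.

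Genes whose FPKM times exon length in kb averaged above 0.5 were fitted with limma 3.58.1 (trend) in R 4.3.3 on log2(FPKM + 0.1), a scale that understates changes of low genes, with Benjamini-Hochberg adjustment over all genes tested. Exact permutation tests were two-sided (Python 3.11.15, scipy 1.17.1). The procedure was run on simulated data with independent noise for each gene. That setting holds no mouse that deviates in many genes, such as A94 or the kidney of A115, and does not cover this case. Liver and kidney of a mouse were paired by the mouse number in the titles. The deviations of both organs from their group means, correlated across genes, gave −0.0100 to 0.507 for the 8 mice, and the consensus correlation within a mouse was 0.0958. The members, the lists and the tests were chosen with earlier results of these data known. Named with full values were the 6 genes with the smallest p per organ, the 8 with the largest called difference between organs, and Tlr4, Nlrp3, Il1b, Il18, Myd88 and Nfkbia, while other genes were named after their values were seen. Each of these was changed in turn: the scaling (median ratio or quantile normalization), the pseudocount (0.5 or 1), the minimum level (none, or a mean FPKM of 1), the trend, the tool (limma-voom on recovered fragments), a joint fit of the organs, a block for the mouse, and the omission of single mice. Leaving out A94 together with scaling by the median ratio was chosen after seeing the data.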

Additional observations from a re-analysis of the deposited data

Results flagged for a closer look

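Within the groups of 4 mice, a single mouse stood far from the other 3 by Dixon's ratio in 20 of 154 tests. Independent tests of normal values would give about 1 in 20, or 7.7. These tests share the same mice and are not independent, so that the 2 counts do not show an excess. The share of such flags over all genes is not given here. Most were kidneys. L86, an LD mouse, accounted for 6, with Tlr2 at 3.63 FPKM against at most 1.11 in the other LD kidneys, Tlr8 at 0.695, Casp1 at 1.67, Casp4 at 4.97 and Tnfaip3 at 3.504, all above the others, and Nod2 at 0.303, below them. A115 accounted for 4 low values in the ADV kidneys, which were Il1b at 0.273 FPKM, Ticam1 at 1.22, Irak1 at 7.87 and Irak2 at 2.33. A91 was low in 3 genes among the ADV kidneys, with Tlr2 at 1.04 FPKM, Casp4 at 1.08 and Il1rn at 0.103 against at least 2.0 in the other ADV kidneys. In the ADV livers A94 was high in Clec7a (23.7 FPKM), Gsdmd (17.3) and Tnfaip3 (2.23), and A91 was low in Irak4 (2.098). In the LD livers L104 was high in Irak2 (7.76 FPKM) and Tirap (5.28), and L65 in Nlrc4 (0.143). No gene had a tested difference of the ADV effect between liver and kidney past the threshold with all 8 mice.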

How the results depend on the processing

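In the liver the count of genes at an unadjusted p under 0.05, 5 as reported, was 3 with a mean FPKM above 1, 2 with both organs in 1 fit, and 8 with the median ratio scaling without A115 or without A94. Leaving out 1 mouse gave 2 (without L65) to 12 (without A91), with 3 without L63 and 8 without A115. Over all genes, 960 were higher and 379 lower of 12816 without A115. Under the median ratio these were 863 and 792 without A115, and 1022 and 929 of 12553 without A94. The counts over all genes without L63, L65 or A91 are not given here. Genes whose groups did not overlap numbered 4 to 9 (highest without A91), and 7 without A115 under the median ratio. With 3 against 4 mice, groups lie apart more easily by chance than with 4 against 4. Over all genes, 1054 lay apart higher and 652 lower of 12553 without A94, against 891 and 243 of 12835 with all mice. The counts over all genes for the other omitted mice are not given here. In the kidney the calls were 0 to 3 when 1 mouse was left out (3 without A115) and 2 without A115 under the median ratio. Without A115, 18.8% of all genes were called, and 16% under the median ratio. Genes at an unadjusted p under 0.05 were 1 to 8 (8 without A91, 5 without A115, 2 without L86), and 6 without A115 under the median ratio. Over all genes, 4269 were higher and 1097 lower of 14475 without A115, and 2558 and 2636 with the median ratio as well. Without L86 these were 280 and 168 of 14467. Genes apart were 2 to 7 (7 without A91, 5 without A115, 4 without L86), 1 under the median ratio with all mice or without A94, and 4 without A115. Over all genes, 168 lay apart higher and 363 lower of 14291 without A94, against 139 and 265 of 14452 with all mice. The counts over all genes for the other settings are not given here. The kidney fold change of Il1b, 0.12 without A115 under the median ratio, ranged from −0.54 to 0.30 over single mice, and that of Il18 from −0.20 to 0.23, with −0.0098 after quantile normalization and −0.13 without A94 under the median ratio.

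Between liver and kidney, genes higher in the liver numbered 16 under the median ratio, 17 after quantile normalization, and 17 without A115 and 16 without A94 under the median ratio. Genes higher in the kidney numbered 4, 3, 6 and 5 in these settings. In the same order, the difference of Nlrp3 was 0.41, 1.22, 0.47 and 0.33, that of Myd88 0.74, 0.63, 0.66 and 0.74, and that of Nfkbia 0.46, 0.17, 0.48 and 0.51. Tlr4 had 0.39 after quantile normalization and 0.097 without A115 under the median ratio. Over single mice left out, Nlrp3 ranged from −0.14 to 0.074 and Myd88 from −0.18 to 0.10. The difference of the ADV effect had 1 call among the 40 genes without A115 under the median ratio, beside 3.39% of all genes. With the mouse as a replicate block the organ calls were 21 as a random term and 27 as a fixed term, against 20. As a fixed term the block added Tlr1, Tlr7, Tlr8, Tlr9, Aim2, Il1b and Nfkbia and lost none of the 20.

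With 4 mice per group, low genes and 1 aberrant kidney, differences of moderate size could not be separated from the spread between mice, and a missed threshold does not show equal levels. Apart from the scaling, which shifts all genes by construction, the cause of these changes was not tested.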

Other observations

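Of the genes that were too low for a test, A94 held the highest level in several. Il1r2, the decoy receptor of IL-1, was at 0.775 FPKM in the liver of A94 and at most 0.230 in the other livers, and at 1.56 FPKM in its kidney and at most 0.262 in the other kidneys. Tlr9, the receptor of unmethylated DNA, was at 0.526 FPKM in the liver of A94 and at most 0.0936 in the other livers. In the kidney, where it was tested, Tlr9 was at 1.76 FPKM in A94, at most 0.608 in the others and listed at 0 in A115. Il1a was at 0.452 FPKM in the kidney of A94 and at most 0.0594 in the others, and Tlr6 was at 0.371 FPKM there and at most 0.247 in the others. Clec4e, a receptor of mycobacterial glycolipid, did not follow this order in the liver, where A91 was highest at 0.172 FPKM and A94 was at 0.149.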
